A study of Mus musculus with 4 samples.

Results

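Rag1, Rag2, Dntt, Il7r and Ly6d, genes that mark the first steps of lymphoid development, were followed in haematopoietic progenitors of mouse foetal liver. Every probe set annotated to exactly 1 of these 5 genes was taken, which gave 8 probe sets (3 for Dntt, 2 for Il7r and 1 for each of the others). Together they are 5 of the 18193 genes that the arrays measured with a gene symbol of their own. The 5 genes were chosen by their known role and by their log2 intensities in these same 4 arrays, so their levels and differences are given as a description, with no test.

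The cells were sorted from foetal livers of female embryos at E13.5 as lineage negative, cKit positive and Sca1 positive (LSK), the fraction that holds stem cells and multipotent progenitors. All 4 samples had the genotype Hes1 GFP/WT, in which 1 allele of Hes1, a Notch target gene, carries a GFP reporter. Cells labelled HES1-GFP negative were measured on 3 arrays and cells labelled HES1-GFP positive on 1, and the comparison the labels set up is positive against negative. Whether the 3 negative samples are separate litters is not stated, so the spread between them may be technical, and the single positive array has no spread of its own. Hes1 itself was lowest in the array labelled positive, so every difference below is one between labels, and whether labels were exchanged between samples was not tested.

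Lymphoid cells build their antigen receptor genes by cutting and rejoining V, D and J segments. The RAG1 and RAG2 proteins together form the recombinase that makes the cuts, and terminal deoxynucleotidyl transferase, the product of Dntt, adds bases without a template at the joints. Il7r encodes the alpha chain of the interleukin 7 receptor, which pairs with the common gamma chain and signals through JAK1, JAK3 and STAT5 to keep lymphoid progenitors alive. Ly6d encodes a small GPI-anchored surface protein used to mark the common lymphoid progenitors that lean to the B lineage. In foetal liver these genes come on in lymphoid-primed progenitors and pro-B cells, and Dntt is known to be lower in foetal than in adult lymphocyte precursors.

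The start regions of these genes are shown because the probe sets of these genes had their highest values in the same arrays. RefSeq promoter windows of 300 bases (250 before to 50 after the start, build GRCm38.p6) were at hand for 4 of the 5 genes. They are chr2:101649483-101649782 on the minus strand for Rag1, chr2:101624462-101624761 on the plus strand for Rag2, chr19:41029025-41029324 on the plus strand for Dntt and chr15:9529827-9530126 on the minus strand for Il7r. Capitals mark matches, on either strand, to the E-box CANNTG bound by E proteins, a Runx core TGTGGT, an Ets core GGAAGT, an Ikaros core TGGGAA and a Foxo core TGTTTAC.
Rag1: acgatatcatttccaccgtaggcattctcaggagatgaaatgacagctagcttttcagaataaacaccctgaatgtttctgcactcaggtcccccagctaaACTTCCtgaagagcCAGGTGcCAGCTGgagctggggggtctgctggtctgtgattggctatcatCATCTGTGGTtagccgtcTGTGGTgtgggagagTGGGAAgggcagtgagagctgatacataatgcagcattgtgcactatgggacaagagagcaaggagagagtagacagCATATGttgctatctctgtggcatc
Rag2: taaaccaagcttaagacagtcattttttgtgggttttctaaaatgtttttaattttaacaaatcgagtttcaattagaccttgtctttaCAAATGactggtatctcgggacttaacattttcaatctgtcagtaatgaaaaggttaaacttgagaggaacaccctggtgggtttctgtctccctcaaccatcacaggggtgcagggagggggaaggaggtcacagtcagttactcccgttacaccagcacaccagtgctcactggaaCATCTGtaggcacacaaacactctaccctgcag
Dntt: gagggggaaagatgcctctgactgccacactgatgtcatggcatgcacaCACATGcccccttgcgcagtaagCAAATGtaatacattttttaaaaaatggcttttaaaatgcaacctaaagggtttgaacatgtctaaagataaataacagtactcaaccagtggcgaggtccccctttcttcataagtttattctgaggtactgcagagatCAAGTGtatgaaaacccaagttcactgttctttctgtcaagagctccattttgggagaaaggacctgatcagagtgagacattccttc
Il7r: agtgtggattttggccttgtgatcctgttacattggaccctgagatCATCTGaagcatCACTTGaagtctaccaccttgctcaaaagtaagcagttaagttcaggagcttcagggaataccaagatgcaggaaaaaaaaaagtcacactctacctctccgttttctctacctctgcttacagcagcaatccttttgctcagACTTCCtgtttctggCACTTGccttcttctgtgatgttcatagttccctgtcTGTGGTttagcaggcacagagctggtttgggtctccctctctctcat
The Rag1 window held 4 E-boxes, 2 Runx cores, 1 Ets core and 1 Ikaros core, with 1 E-box and 1 Runx core overlapping. In the Il7r window there were 3 E-boxes, 1 Runx core and 1 Ets core. The Dntt window held 3 E-boxes and the Rag2 window 2, with none of the other letters searched. Of 32851 windows of this length in the mouse table, 72.3% held an E-box, 16.8% the Runx core, 23.8% the Ets core, 25.6% the Ikaros core and 3.65% the Foxo core. A match describes the letters only and shows no binding.

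Rag1, the catalytic subunit of the recombinase, had log2 intensities of 11.85, 11.54 and 7.20 in negative replicates 1, 2 and 3 and of 7.32 in the array labelled positive. On the linear scale these are 3694, 2980, 147 and 159. Negative replicates 1 and 2 were high and close together, the other 2 arrays were low and close together, and the array labelled positive lay inside the negative range. The highest value was 25.1 times the lowest. The difference of the array labelled positive from the negative mean of 10.20 ± 2.60 (SD, n = 3) was -2.88 log2 units. It was -4.38 without negative replicate 3, and 0.12 against negative replicate 3 alone.

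Rag2, the partner subunit of the recombinase, was at 8.99, 8.71 and 6.64 in negative replicates 1, 2 and 3 and at 6.88 in the array labelled positive. The order of the arrays was that of Rag1, with replicate 1 highest and replicate 3 lowest, and the array labelled positive again lay inside the negative range. The spread was smaller, 2.35 log2 units over the 4 arrays against 4.65 for Rag1. From the negative mean of 8.11 ± 1.28 (SD, n = 3) the array labelled positive differed by -1.23 log2 units. That difference was -1.97 without negative replicate 3 and -0.79 without negative replicate 1.

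Il7r was measured by 2 probe sets. In 1448575_at it was at 12.11, 11.75 and 8.89 in negative replicates 1, 2 and 3 and at 8.39 in the array labelled positive. In 1448576_at it was at 9.55, 10.20 and 6.19 against 6.14. Both probe sets placed negative replicates 1 and 2 at the top and the array labelled positive at the bottom, below all 3 negative arrays. They differed in which of replicates 1 and 2 was higher. The distance of the array labelled positive from the negative mean was -2.53 log2 units in the first probe set (negative mean 10.92 ± 1.77, SD, n = 3) and -2.51 in the second (8.65 ± 2.15, SD, n = 3). Against negative replicate 3 alone it was -0.50 and -0.05.

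Ly6d, the surface marker of B-biased lymphoid progenitors, was at 11.81, 11.63 and 7.63 in negative replicates 1, 2 and 3 and at 7.66 in the array labelled positive. As for Rag1, the values fell into a high pair and a low pair, and the array labelled positive lay inside the negative range, 0.03 above replicate 3. The distance from the negative mean of 10.36 ± 2.36 (SD, n = 3) was -2.70 log2 units, or -4.06 without negative replicate 3. In linear intensity the values were 3581, 3177, 198 and 202.

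Dntt gave a weaker pattern that depended on the probe set. In 1450545_a_at, the probe set with the highest mean and therefore the one used for the gene, it was at 6.73, 6.56 and 5.92 in negative replicates 1, 2 and 3 and at 5.91 in the array labelled positive. This is a spread of 0.82 log2 units over the 4 arrays, against a median of 0.54 over all genes, with the array labelled positive lowest by 0.01. The difference from the negative mean of 6.40 ± 0.43 (SD, n = 3) was -0.50 log2 units, -0.74 without negative replicate 3 and -0.33 without negative replicate 1.

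The other 2 probe sets of Dntt spread further. In 1449757_x_at the values were 7.98, 7.02 and 3.72 in negative replicates 1, 2 and 3 and 5.68 in the array labelled positive. In 1420166_at they were 6.27, 6.85 and 4.31 against 5.10. In both, the array labelled positive lay inside the negative range and above negative replicate 3, by 1.96 and 0.78 log2 units. The suffix of 1449757_x_at marks a probe set whose probes may also bind other transcripts. Neither has an accession in the platform annotation. The level of Dntt in the array labelled positive relative to negative replicate 3 thus differed between its probe sets.

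**Figure D1:**
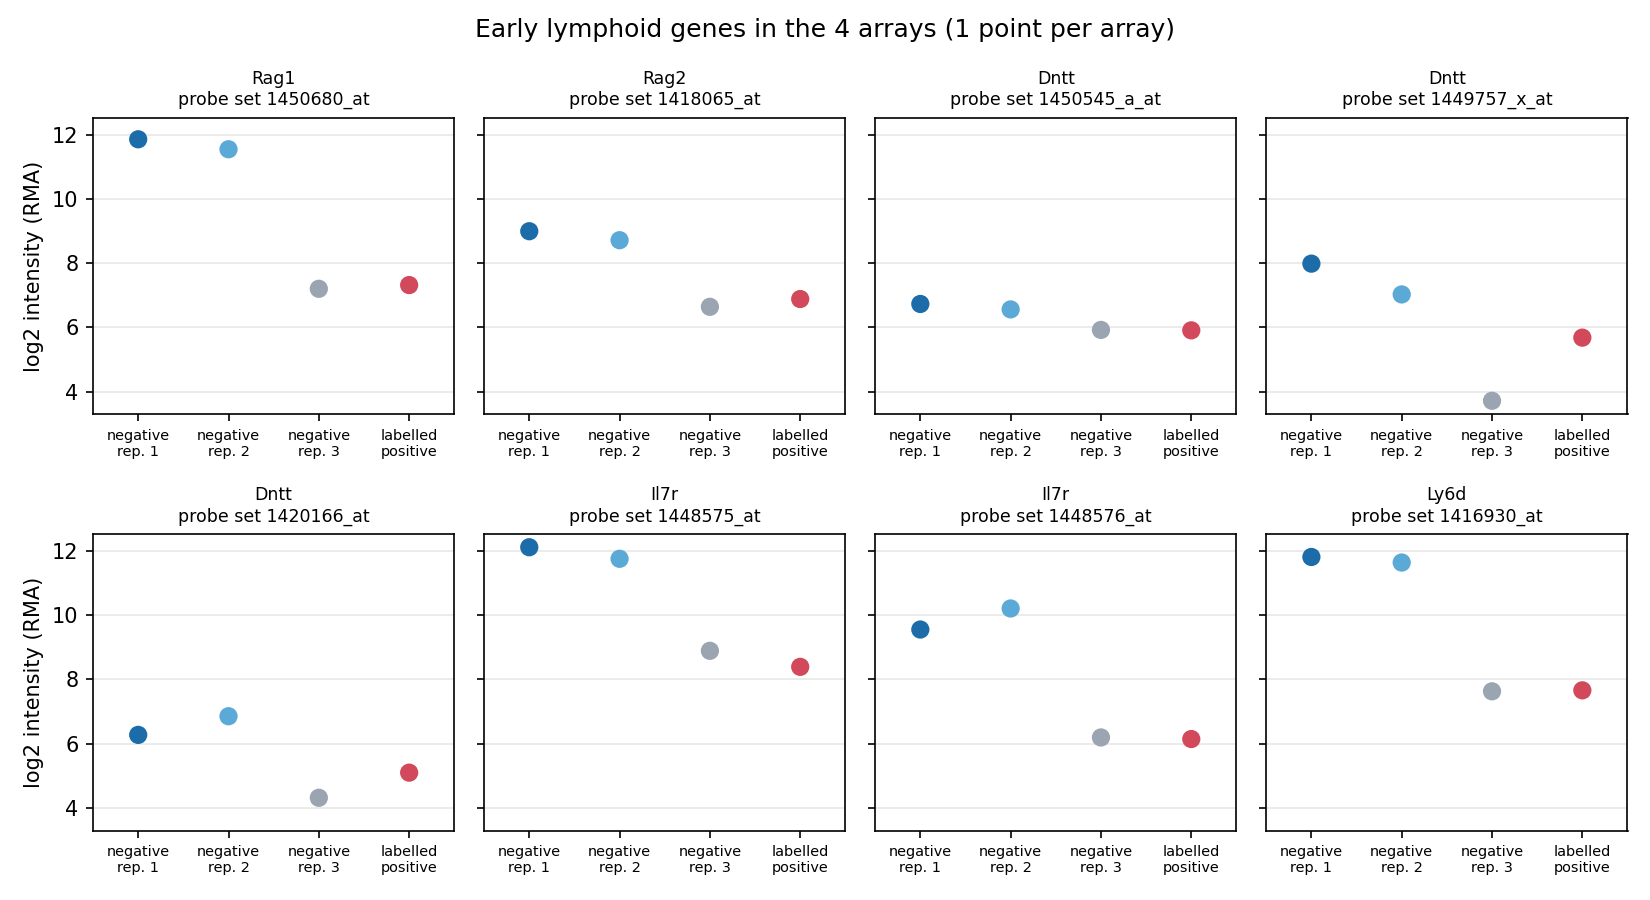
Log2 intensity (vertical axis, shared by all panels) of the 8 probe sets of Rag1, Rag2, Dntt, Il7r and Ly6d in the 3 arrays labelled HES1-GFP negative and the 1 labelled positive, 1 point per array. Negative replicates 1 and 2 are the highest points in every panel; Rag1 runs from 11.85 to 7.20, while the first Dntt probe set spans 0.82.

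Over the 8 probe sets the order of the arrays had a common part. Negative replicates 1 and 2 were both above negative replicate 3 and the array labelled positive in 8 of 8 probe sets and so in 5 of 5 genes, an order found in 17.4% of all genes. This order was noticed in these same arrays, so it describes them only. Replicates 1 and 2 were less than 1 log2 unit apart in every probe set, with differences from -0.66 to 0.96, and replicate 1 was the higher in 6 of 8. Relative to negative replicate 3, the array labelled positive was above in 5 of 8 probe sets and below in 3, with differences from -0.50 to 1.96. For a scale, the median absolute difference over all genes was 0.26 log2 units between replicates 1 and 2 and 0.21 between replicate 3 and the array labelled positive. Rag1, Rag2 and Ly6d differed between the last pair by 0.12, 0.24 and 0.03. In these 3 genes the 2 arrays were no further apart than in a typical gene or nearly so. Il7r differed by -0.50 and -0.05 in its 2 probe sets, and Dntt by -0.01, 1.96 and 0.78 in its 3.

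Single arrays were then compared in the probe set used for each gene. The array labelled positive was at least 1 log2 unit lower than negative replicate 1 in 4 of 5 genes (5.34% of all genes). The exception was Dntt. The same 4 genes were lower by that margin than in negative replicate 2 (5.44% of all genes). The other 2 probe sets of Dntt differed by -2.30 and -1.18 log2 units from replicate 1. From replicate 2 they differed by -1.34 and -1.76. None of the 5 was lower by that margin than in negative replicate 3 (3.23% of all genes). Negative replicate 3 itself was at least 1 log2 unit below replicate 1 in 4 of 5 genes (5.46% of all genes) and below replicate 2 in 4 of 5 (5.59%). The median over the 5 genes was -3.72 log2 units against replicate 1, -3.36 against replicate 2 and 0.03 against replicate 3, where the medians over all genes were 0.04, -0.001 and -0.03. Differences of several log2 units in Rag1, Rag2, Il7r and Ly6d were thus present within the negative label as well as between the labels.

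**Figure D2:**
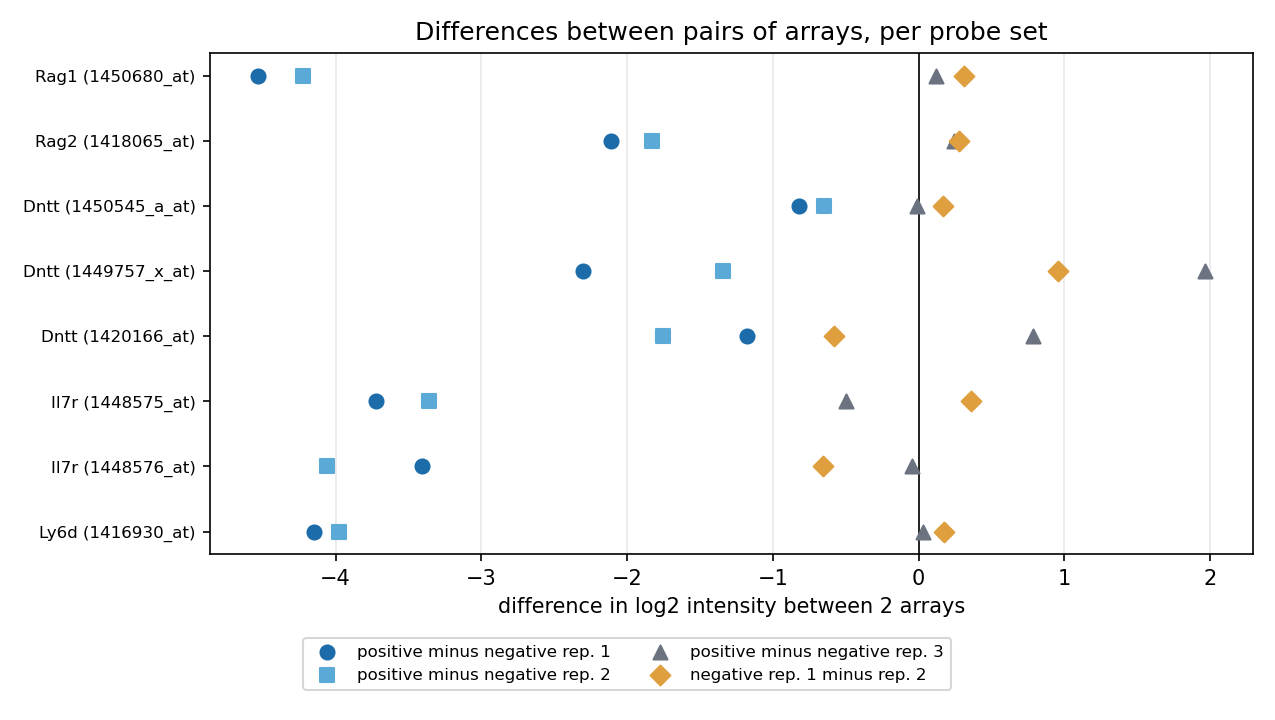
Difference in log2 intensity between 2 arrays (horizontal axis) for each of the 8 probe sets, with 1 symbol per pair of arrays. Differences of the array labelled positive from negative replicates 1 and 2 run from -4.54 to -0.65, while its differences from replicate 3 lie between -0.50 and 0.24 except in 2 Dntt probe sets.

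Against the 3 negative arrays together, the array labelled positive lay below their range in 2 of 5 genes, Il7r and Dntt (23.0% of all genes), inside it in 3 and above it in 0 (23.6% of all genes). It lay at least 1 log2 unit below the range in 0 of 5 genes (0.566% of all genes) and at least 1 above it in 0 of 5 (0.841%). The median difference from the negative mean was -2.53 log2 units over the 5 genes, against -0.001 over all genes. limma over all 18193 genes called 0 genes higher (0%) and 0 lower (0%) in the array labelled positive at an adjusted p under 0.05, with 734 at an unadjusted p under 0.05. The lowest adjusted p of that test was 0.820. In bulk RNA of sorted cells, fewer cells that express a gene and less RNA of it per cell cannot be told apart.

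Hes1, which carries the reporter, went against its label in the same arrays. It was at 8.78, 9.07 and 6.70 in negative replicates 1, 2 and 3 and at 6.57, the lowest level, in the array labelled positive. Of the sort markers, Kit was at 9.90, 9.72 and 9.68 in the negative arrays and 10.13 in the array labelled positive. Ptprc, the pan-leukocyte phosphatase CD45, is not among the sort markers named above. It was at 11.77, 11.31, 11.06 and 11.26. These probe sets stayed within 1 log2 unit over the 4 arrays, while the second probe set of Ptprc was at 7.75, 5.99, 7.996 and 7.86, with negative replicate 2 lowest. No probe set named for Ly6a, which encodes Sca1, was used here. The median intensity of the arrays lay between 74.7 and 76.1.

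In the probe set used for each gene, the rest of the interleukin 7 pathway spread less than Il7r, as did 99.37% of all genes. Other probe sets spread further, by up to 3.30 log2 units for Bcl2l11, 3.21 for Socs3 and 2.88 for Stat5a. Of 14 genes of the pathway measured, 4 lay below the negative range, 8 inside it and 2 above it, and limma called 0 of 14 (0 also at an unadjusted p under 0.05). Their median difference was -0.15 log2 units, and 11 of 14 had a spread under 1 log2 unit over the 4 arrays (75.2% of all genes), against 3.72 for Il7r. The median spread of the list was 0.75, above the 0.54 over all genes. Negative replicates 1 and 2 were both above the other arrays in 4 of 14 (17.4% of all genes), by at least 1 log2 unit in 0 (1.56% of all genes). The kinase gene Jak1 was at 11.03, 10.39 and 10.32 in negative replicates 1, 2 and 3 and at 10.003 in the array labelled positive. Jak3, the kinase bound by the common gamma chain, was at 7.81, 8.72, 7.87 and 8.04 in the same order of arrays. Stat5a, a transcription factor that the receptor activates, was at 9.91, 9.95, 10.56 and 10.71, and in its second probe set at 9.03, 6.71, 9.60 and 9.01, so that its probe sets did not share 1 order.

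Among the feedback and survival genes of that pathway, the widest spread was in Bcl2l11, which encodes the death protein BIM. Its levels were 10.70, 10.22 and 8.87 in negative replicates 1, 2 and 3 and 9.78 in the array labelled positive. Bcl2, the survival gene raised by interleukin 7, was at 10.65, 11.37, 10.62 and 10.34, with replicate 1 only 0.04 above replicate 3. Socs3, a feedback inhibitor of cytokine receptors, was at 9.36, 8.44, 9.23 and 8.86. A dimmer probe set of Socs3 gave 6.34, 8.69, 5.48 and 6.10, with replicates 1 and 2 on top. Crlf2, which pairs with the Il7r chain to form the receptor for TSLP, was at 9.55, 10.17, 9.89 and 9.61. In the probe set used for each gene, Bcl2l11, Bcl2, Jak1 and Mcl1 were the 4 with negative replicates 1 and 2 on top. The other probe sets of Bcl2l11 did not share 1 order.

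Genes that repair the breaks made by the recombinase spread less than Rag1 and Rag2 in the probe set used for each, apart from Lig4. So did most genes, with 99.9% of all genes spreading less than Rag1 and 96.43% less than Rag2. Of 15 measured, 3 lay below the negative range, 5 inside it and 7 above it, limma called 0 (0 at an unadjusted p under 0.05), and the median difference was 0.17 log2 units. A spread under 1 log2 unit was found in 12 of 15 (75.2% of all genes). The median spread was 0.70, against 0.54 over all genes. Negative replicates 1 and 2 were both above the other arrays in 3 of 15 (17.4% of all genes), namely Xrcc6, Atm and Trp53bp1. Xrcc6, which encodes the Ku70 subunit that holds broken ends, had the high and low arrays of the Rag genes, at 10.78, 10.89 and 10.005 in negative replicates 1, 2 and 3 and 9.90 in the array labelled positive. Its second probe set gave 7.55, 8.38, 6.10 and 6.23. Xrcc5, the Ku80 subunit that pairs with it, was at 7.91, 8.36, 8.02 and 8.60, and did not share that order.

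Lig4, the ligase that seals the joints, was at 4.28, 6.59 and 3.64 in negative replicates 1, 2 and 3 and at 6.85 in the array labelled positive. Its binding partner Xrcc4 was at 7.04, 6.48, 7.50 and 8.29, with the array labelled positive highest in its second probe set too, at 8.02 against 6.86, 7.04 and 6.996. Prkdc, the DNA-dependent protein kinase, was at 7.68, 6.63, 7.69 and 7.58, and Nhej1, a helper of the ligase, at 7.07, 7.14, 7.93 and 7.03. Hmgb2, a DNA-bending cofactor of the recombinase, spread by only 0.08 log2 units. None of these followed the 2 Rag genes.

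Transcription factors known to act on Rag1, Rag2, Dntt or Il7r divided into a few that spread widely and many that did not. This refers to the probe set used for each gene. The spread was 4.51 log2 units for Pax5 and 4.23 for Ebf1, near the 4.65 of Rag1. It was smaller for Ets1 (2.41), Gata3 (2.39) and Foxo1 (1.73). Some dimmer probe sets of other factors spread further than the one used, by up to 2.365 log2 units for Bcl11a and 2.15 for Foxp1. Of 20 measured, 5 lay below the negative range, 12 inside it and 3 above it. Their differences had a median of -0.18 log2 units, and limma called 0 (0 at an unadjusted p under 0.05). Negative replicates 1 and 2 were both above the other 2 arrays in 15 of 20 (17.4% of all genes), by at least 1 log2 unit in 5 of 20 (1.56% of all genes). The list was drawn up with earlier results of these arrays known.

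The 5 were Pax5, Ebf1, Ets1, Gata3 and Foxo1. Pax5, which fixes cells in the B lineage, was at 10.39, 10.62 and 6.41 in negative replicates 1, 2 and 3 and at 6.11 in the array labelled positive. Its second probe set gave 7.66, 5.74, 5.43 and 5.50, with only replicate 1 clearly apart. Ebf1, which acts before Pax5 in the same lineage, was at 10.13, 9.97, 6.61 and 5.90, and 3 of its 4 other probe sets kept replicates 1 and 2 on top by more than 1 log2 unit. Foxo1, a factor known to act on Il7r and the Rag genes, was at 10.85, 11.09, 9.37 and 9.57. The SD of the negative arrays was 2.37 for Pax5 and 1.99 for Ebf1, against 2.60 for Rag1 and 2.36 for Ly6d.

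Ets1, an Ets factor of lymphoid cells, was at 10.70, 10.55 and 8.29 in negative replicates 1, 2 and 3 and at 8.60 in the array labelled positive. Gata3, a factor of T and innate lymphoid cells, was at 8.22, 7.85, 6.21 and 5.83. Bach2, a repressor in lymphoid progenitors, was at 9.09, 9.23, 8.12 and 8.54. Satb1 was at 10.82, 10.78, 9.95 and 10.31, and spread further in another probe set, at 11.34, 10.79, 9.15 and 9.55. In the probe set used, factors of the wider progenitor pool spread less. The spread was 0.55 log2 units for Ikzf1 (Ikaros), 0.27 for Myb, 0.21 for Runx1 and 0.38 for Spi1 (PU.1). Tcf3, the gene of the E2A proteins, spread by 0.99, and a dimmer probe set of Runx1 by 1.31.

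**Figure D3:**
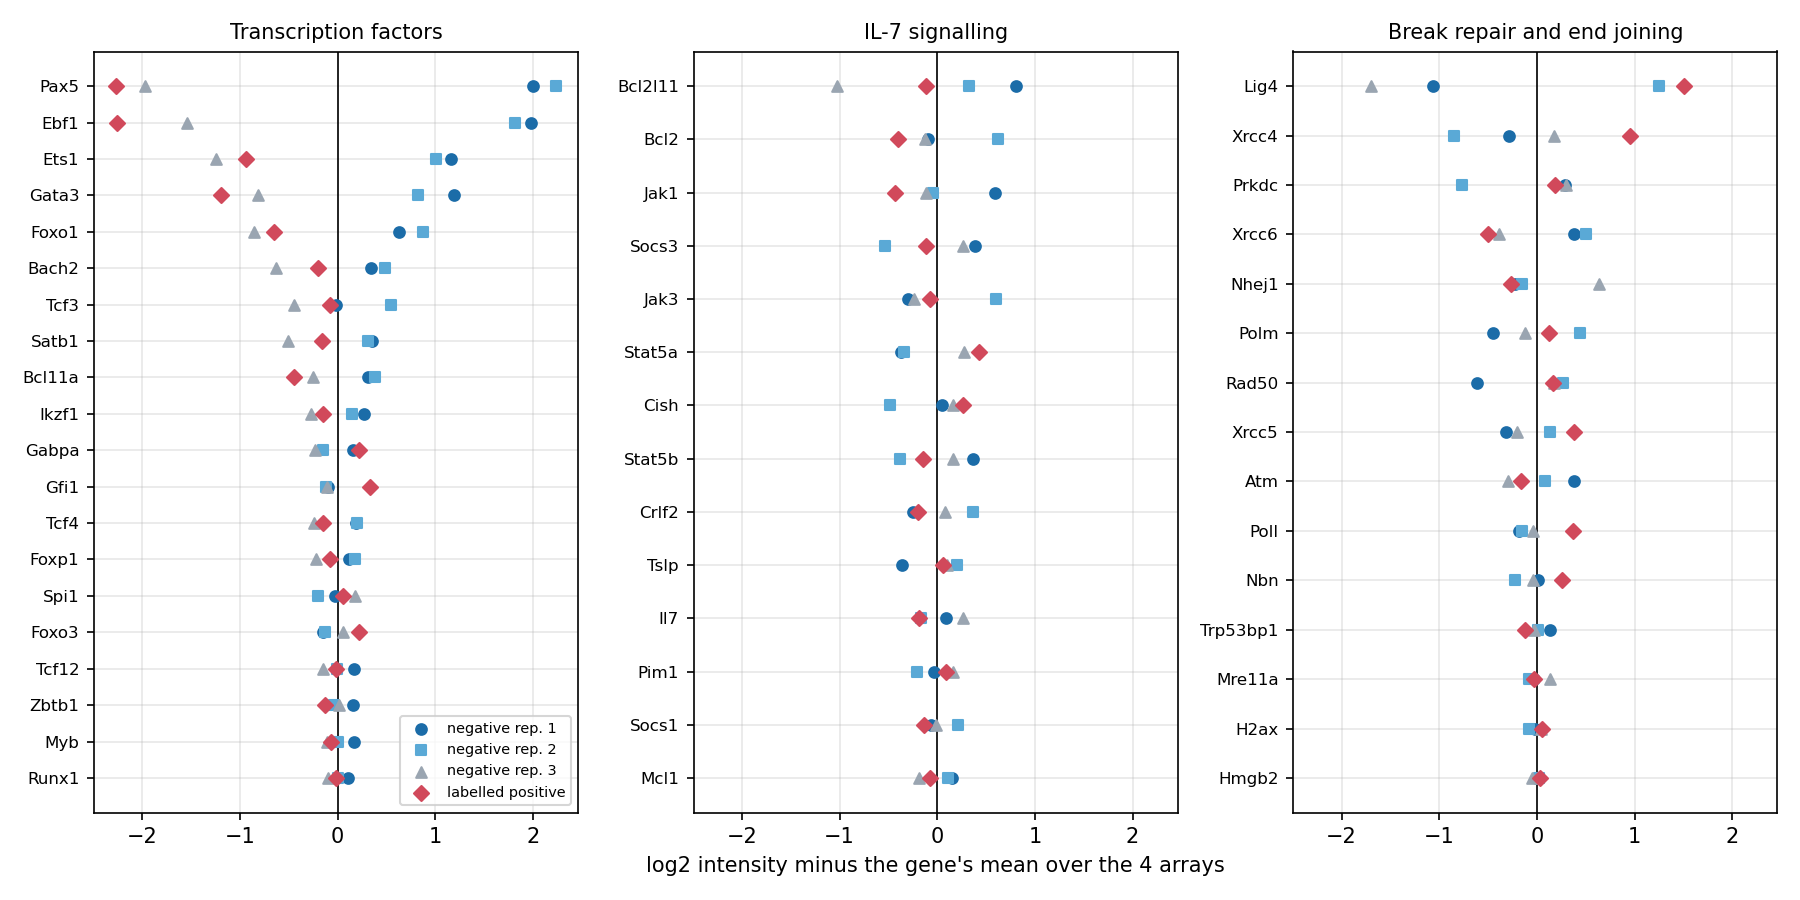
Log2 intensity minus the gene's own mean over the 4 arrays (horizontal axis, shared) for 20 transcription factors, 14 genes of interleukin 7 signalling and 15 genes of break repair, ordered by spread, with 1 symbol per array. Pax5, Ebf1, Ets1, Gata3 and Foxo1 divide the arrays as Rag1 does, while most genes in the other panels lie within 1 log2 unit.

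Receptors and surface genes of lymphoid progenitors other than Il7r and Ly6d shared the order in part. Negative replicates 1 and 2 were both above the other arrays in 8 of 9 measured (17.4% of all genes). They were above by at least 1 log2 unit in 2 of 9 (1.56% of all genes). Of all genes, 23.0% lay below the negative range in the array labelled positive and 23.6% above it. In the array labelled positive, 6 of 9 lay below the negative range, 2 inside it and 1 above it, and limma called 0 (2 at an unadjusted p under 0.05). Ccr9, a chemokine receptor of cells bound for the thymus, was at 10.95, 10.94 and 7.24 in negative replicates 1, 2 and 3 and at 8.73 in the array labelled positive. Il18r1, a chain of the interleukin 18 receptor, was at 9.37, 9.47, 6.97 and 6.46. Ccr7 was at 8.99, 9.15, 8.15 and 5.52, with the array labelled positive at -2.63 log2 units from negative replicate 3. Flt3, the receptor that lymphoid-primed progenitors carry before Il7r, spread by only 1.05 log2 units, at 12.12, 11.95, 11.63 and 11.07.

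Genes of the next stage, the pro-B and pre-B cell, followed the same arrays. Of 10 measured, 9 had negative replicates 1 and 2 above the other 2 arrays (17.4% of all genes). In 7 they were above by at least 1 log2 unit (1.56% of all genes). In the array labelled positive, 6 lay below the negative range (23.0% of all genes) and 4 inside it. Their median difference was -1.12 log2 units, and limma called 0 (1 at an unadjusted p under 0.05). Cd79a, which encodes a signal-transducing part of the B cell receptor, was at 11.72, 12.19 and 8.28 in negative replicates 1, 2 and 3 and at 7.44 in the array labelled positive. Vpreb3, a gene of the pre-B stage, was at 10.63, 10.58, 7.84 and 7.74, and Pou2af1, a B cell coactivator, at 10.46, 10.46, 7.79 and 8.40. Blnk, an adaptor of the pre-B receptor, was at 8.90, 8.55, 6.75 and 5.84. Mature B cell genes did not share the order, with 1 of 5 (Ighm) in it and Ms4a1, which encodes CD20, at 3.63, 3.34, 3.73 and 4.06.

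Markers of other cell types moved with the 5 genes in these arrays. All 10 macrophage markers measured had negative replicates 1 and 2 above the other arrays (17.4% of all genes). In 9 of the markers this was by at least 1 log2 unit (1.56% of all genes). Their summed linear intensity was 25726, 24039 and 3782 in negative replicates 1, 2 and 3 and 4169 in the array labelled positive. The complement gene C1qc was at 11.94, 11.99, 8.80 and 8.18. Of all genes, 23.0% lay below the negative range in the array labelled positive. In the array labelled positive 6 of 10 were below the negative range, and limma called 0 (1 at an unadjusted p under 0.05). The part of these cells in the levels of the 5 genes was not tested.

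T cell markers had this order in 5 of 7 (17.4% of all genes). Their summed intensity was 733 to 2196 in the negative arrays and 760 in the array labelled positive. Bcl11b, a factor of T cell commitment, was at 9.23, 8.61, 4.58 and 4.78, and Cd3g, a chain of the T cell receptor complex, at 8.19, 9.26, 5.16 and 5.50. Cd3e and Cd3d, other chains of that complex, stayed between 5.28 and 6.03. NK and innate lymphoid markers had the order in 4 of 6 (17.4% of all genes). Their sums were 1444 to 1887 in the negative arrays and 1336 in the array labelled positive. Zbtb16, a factor of innate lymphoid precursors, had the widest spread of that list, at 8.68, 8.59, 6.99 and 5.85. Eomes had the order with a spread of only 0.49 log2 units. Id2 and Ncr1 did not have it, and in both the array labelled positive was highest. Id2 was at 9.75, 9.64 and 9.96 in negative replicates 1, 2 and 3 and at 10.097 in the array labelled positive. Ncr1 spread by 0.099. Limma called 0 genes in either list (0 and 1 at an unadjusted p under 0.05).

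Erythroid markers did not share the order, in 0 of 7, with sums of 19496 to 24912 in the negative arrays and 24827 in the array labelled positive, and limma called 0 (0 at an unadjusted p under 0.05). Hepatoblast markers had it in 2 of 7, with sums of 1069 to 1949 against 1424, and limma called 0 (1 at an unadjusted p under 0.05). The order was found in 17.4% of all genes. The part of these cell types in the levels of the lymphoid genes was not tested.

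**Figure D4:**
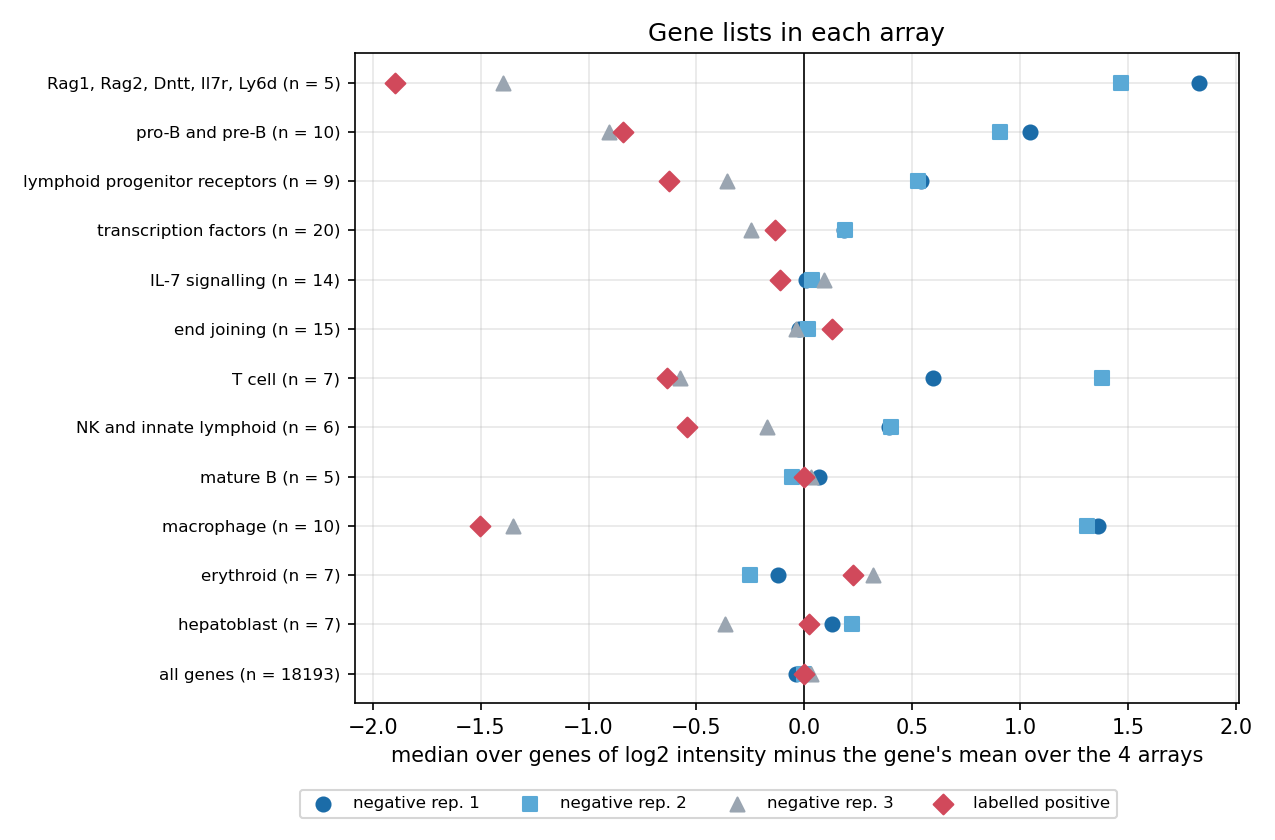
Median over the genes of a list of log2 intensity minus each gene's mean over the 4 arrays (horizontal axis), for the 5 lymphoid genes, 11 gene lists and all genes, with 1 symbol per array and the number of genes in brackets. The 5 genes span 1.83 to -1.90 and the macrophage list 1.36 to -1.50, while interleukin 7 signalling and end joining genes lie near 0 in all arrays.

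The genes whose values lay closest to each of the 5 were found by the root mean square difference of mean-centred log2 values over the 4 arrays, among 16300 named genes. With 4 arrays many genes come close by this measure. Nearest to Rag1 were St6gal1, a sialyltransferase of B cells, Bcl11b and Tpsb2, a mast cell tryptase, at 0.10, 0.15 and 0.18 log2 units. Nearest to Rag2 were Slc40a1, the iron exporter ferroportin, at 0.05, Ets1 at 0.07 and Shisa2 at 0.10. Il7r was closest to Dab2, an endocytic adaptor, at 0.02, Themis, a T cell signalling gene, at 0.11 and Adm, which encodes adrenomedullin, at 0.14. Ly6d was closest to Ccl24, a chemokine that attracts eosinophils, at 0.14, Trgv1, a T cell receptor gamma segment, at 0.16 and Gprin3 at 0.16. Dntt, with its small spread, was closest to Dcstamp at 0.01, Cwc25 at 0.04 and Tsc22d1 at 0.04. In the probe set used for each of the 5 genes, Rag1 and Ly6d were the closest pair, at 0.19. Rag1 and Dntt were the furthest apart, at 1.86.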

How the data were processed

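RNA of 4 sorted LSK samples was measured on Affymetrix mouse arrays. Per the labels' protocols, 5 ng of total RNA was amplified and the cDNA labelled with biotin. The deposited values are probe set intensities made with RMA, per the submitters' processing notes, and no software or version is named in the sources used here. They are linear, from 4.27 to 27451, and log2 was taken of them without a pseudocount, where the design had foreseen log2 values. RMA equalizes the arrays, which hides any difference in total RNA per cell, and amplification can add noise to dim genes.

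Of 45101 probe sets, 64 controls were set aside, and 34945 carried 1 gene symbol in the platform annotation, 34741 of them matched to the reference gene table (GRCm38.p6). Each of 18193 genes was represented by its brightest probe set (highest mean over the 4 arrays), and all probe sets of the 5 genes are given. The levels of different probe sets are not comparable. The number of arrays limits the precision.

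limma 3.58.1 (R 4.3.3) compared positive with negative over all genes (lmFit, eBayes, two-sided, Benjamini-Hochberg, threshold 0.05), with the lone positive array assumed to vary like the negative ones. Margins of 1 log2 unit outside the negative range are a description. The 5 genes and all gene lists were chosen with earlier results of these data known. Named genes are the 5, the 3 nearest to each in profile, Hes1, and, per list, those of the largest spread (up to 6 in the signalling, repair and factor lists, up to 4 in the others) or named for their role. Eomes, Id2 and Ncr1 were named because they spread little or lacked the order of the arrays. Alternatives were averaged probe sets, cyclic loess, a filter at the median level, a pseudocount of 16, trend and robust settings, and each negative replicate left out.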

Additional observations from a re-analysis of the deposited data

How the results depend on the processing

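No alternative changed the direction of the difference of Rag1, Rag2, Dntt, Il7r or Ly6d from the negative mean. Each value moved by less than 1 SD of the negative arrays. With 1 of 3 replicates left out this was so by construction, and that SD holds the gap between replicate 3 and replicates 1 and 2. Without 1 negative replicate the difference ran from -4.38 to -2.06 log2 units for Rag1, -1.97 to -0.79 for Rag2, -0.74 to -0.33 for Dntt, -3.54 to -1.93 for Il7r and -4.06 to -1.97 for Ly6d, in each case furthest from 0 without replicate 3. limma called 0 genes under every alternative but the pseudocount, for which calls were not counted. The count of genes at least 1 log2 unit below the negative range, 103, was 49 with averaged probe sets, and the count above it, 153, was 68 with the filter. Without 1 negative replicate these counts ran from 170 to 472 below and from 242 to 444 above, highest without replicate 3, and the range of 2 arrays is by construction narrower than that of 3. No paired analysis was possible because the labelled groups share only 1 replicate number. No detection calls were used here, so whether the lower levels, of Dntt above all, lie above background is not known.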

Other observations

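Genes that lie next to the 5 in the reference gene order were looked at as values. Rag1 and Rag2 lie side by side. Traf6, an adaptor of innate immune receptors on the far side of Rag1, was at 9.29, 8.999 and 8.79 in negative replicates 1, 2 and 3 and at 9.64 in the array labelled positive. Iftap, on the far side of Rag2, was at 9.32, 8.38, 10.15 and 10.002. In these probe sets neither had negative replicates 1 and 2 highest as the Rag genes did. A dimmer Iftap probe set did, at 5.30, 6.95, 4.07 and 4.08, as did Prr5l, beyond Traf6, at 6.12, 6.67, 5.68 and 5.94 in its brightest probe set but not in its others. limma called 0 of 5 genes near them (0 at an unadjusted p under 0.05). Capsl, beside Il7r, was at 6.995, 7.35, 5.75 and 5.83, and the other neighbour of Il7r, Spef2, at 4.49, 4.75, 4.16 and 4.55. Blnk lies beside Dntt and spread by 3.07 log2 units, while Opalin on the other side spread by 0.25. Capsl, Spef2 and Opalin were chosen for their position.

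Ly6d belongs to the Ly6 family, small surface proteins with a shared three-finger fold. Of 11 other members measured, 9 spread by less than 1 log2 unit over the 4 arrays (75.2% of all genes). In 4 of 11, negative replicates 1 and 2 were above the other arrays (17.4% of all genes). Lynx1, which lies beside Ly6d, was at 7.41, 7.79 and 5.72 in negative replicates 1, 2 and 3 and at 5.80 in the array labelled positive, and its second probe set gave 5.65, 6.50, 5.11 and 4.90. Gpihbp1, which anchors lipoprotein lipase on endothelium, was at 6.05, 6.92, 4.74 and 4.83. Ly6e was at 13.40, 13.18, 13.04 and 13.00, and Ly6k, close to Ly6d on its other side, spread by 0.20.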
